A study of Melitaea cinxia with 170 samples.

Results

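The 50 gene models described here were those with the largest increase 1 h after the start of flight in the thorax of butterflies from Åland (AL). They were drawn from 16667 gene models counted by RNA sequencing in the Glanville fritillary, Melitaea cinxia. Counts were expressed as CPM, the reads of a gene model per 1000000 reads assigned to gene models in the same butterfly. The choice was limited to the 4409 gene models with a median of at least 5 CPM in the 13 flown AL butterflies of 1 h. Members were chosen by these CPM values: the 50 with the highest log2 ratio of the flown median to the median of the 6 AL controls of 1 h were taken, after adding 0.5 CPM to both medians. Butterflies from Pikku Tytärsaari (PT) and all butterflies frozen at 20 h took no part in the choice.

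The thorax carries the wings, and flight muscle makes up most of it. Insect flight is among the most energy-demanding forms of locomotion, and in many animals a bout of exertion is followed by a fast and short-lived rise of a small set of transcripts, many of which return to their resting level within hours. The Glanville fritillary is a model for dispersal among habitat patches, which depends on flight.

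The series covered 85 butterflies from these Baltic islands, 40 from AL and 45 from PT, with 53 females and 32 males. The flown groups were frozen 1 h after the flight treatment began (13 AL, 16 PT) or on the next morning, 17 to 24 h after it began and labelled 20 h (15 AL, 15 PT). The control groups were moved to the same conditions without the flight treatment and frozen at the same times (6 AL and 7 PT at 1 h, 6 AL and 7 PT at 20 h). No allele, transgene or drug entered the design, and the sources used here do not state the age, the family or the flight duration of each butterfly. Each butterfly is a replicate, with the counts of its 2 libraries summed.

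Totals ran from 1820059 to 6944328 counts per butterfly, so that 1 read was worth 0.144 to 0.549 CPM. At 1 h in PT the 10 most abundant gene models took 20.8% to 32.4% of the counts in flown butterflies (median 27.2%) and 25.2% to 33.1% in controls (median 30.9%). The part of this difference in the results below was not tested. The identifiers could not be paired with gene names, so the members are described by their behaviour and not by function, and levels are compared between groups and not between gene models. In whole-thorax RNA, fewer cells of a type and less RNA per cell cannot be told apart.

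In the AL butterflies that chose them, the members' scores ran from 1.87 to 4.88 on the log2 scale, with a median of 2.27 against 0.03 over all 4409 eligible gene models. These values made the choice and are given as a description. Of the 50 members, 39 had a ratio above 4-fold and 13 above 8-fold. The highest score belonged to MCINXTMP_003386, which stood at 44.4 to 93.3 CPM in flown AL butterflies (median 59.1) and at 0 to 4.11 CPM in controls (median 1.53). MCINXTMP_015383 followed, at 161 to 761 CPM (median 341) against 9.27 to 35.0 CPM (median 18.5). For both, every flown AL butterfly lay above every AL control.

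Such a complete separation was seen in 9 of the 50 members and in 12 of the 4409 eligible gene models (0.272%), and it comes from the contrast that made the choice. For the other 41 members flown and control butterflies overlapped. MCINXTMP_009829, the third by score, had no read in 4 of the 6 controls but 27.32 and 21.04 CPM in the other 2, so controls with a median of 0 reached far into the range of flown butterflies, which ran from 0 to 32.4 CPM. The members at the edge of the choice were MCINXTMP_000164, with a score of 1.87 and medians of 9.15 and 2.14 CPM, and MCINXTMP_015280, also at 1.87, with 6.20 and 1.33 CPM. Just outside stood MCINXTMP_007059 at 1.85, with 483 and 134 CPM, and MCINXTMP_010113 at 1.81, with 26.4 and 7.18 CPM. The edge therefore separated gene models of nearly equal score.

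**Figure D1:**
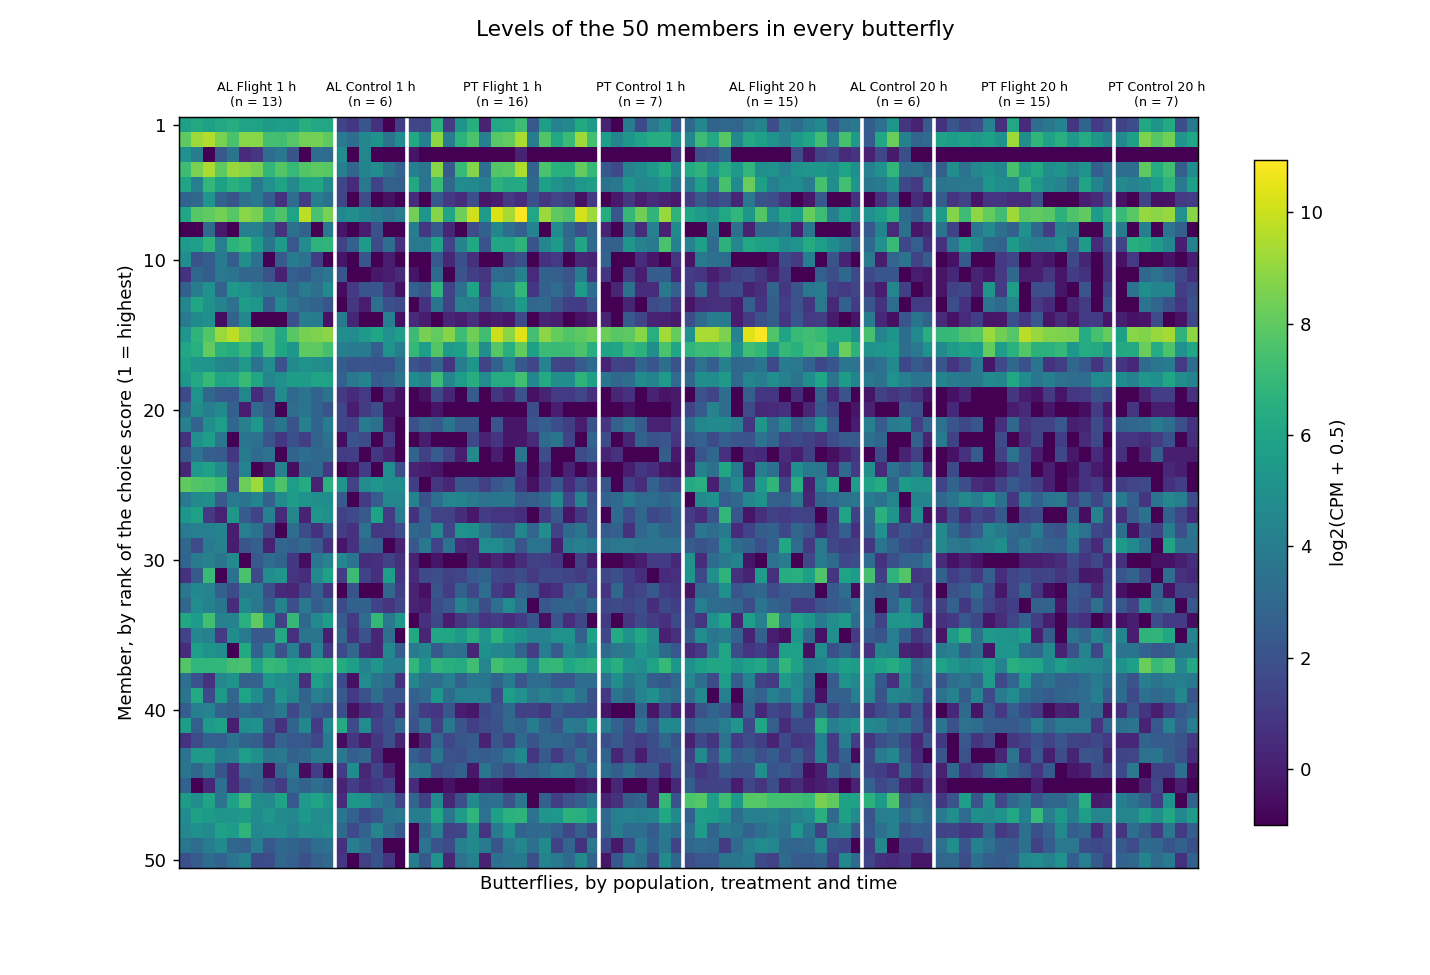
Levels of the 50 members (rows, by rank of the choice score) in all 85 butterflies (columns, in 8 groups), as log2(CPM + 0.5) on the colour scale. The contrast between the first and second blocks made the choice. Several rows are dark, at or near 0, in all 4 PT blocks, and the first rows are brighter in part of the flown PT butterflies at 1 h.

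The members were then followed in the 66 butterflies that took no part in the choice. The fit tested 8353 gene models, with sex as a term, and 49 of the 50 members were among them. The member left out, MCINXTMP_014247, had a median of 0 in each PT group. Fold changes below come from this fit, whose scaling differs from plain CPM, and every p-value called adjusted was adjusted over all gene models tested.

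Flown and control PT butterflies at 1 h asked whether the transcripts that rose in AL also rose on the other island. No member passed the test, and no gene model did (0.0% of 8353 by edgeR's quasi-likelihood test at an adjusted p under 0.05). DESeq2 and limma voom also called no member. At an unadjusted p under 0.05, 8 of 49 members were higher (16.3%, against 3.09% of all gene models), and none was lower (0.0%, against 1.86%). The fitted change was above 0 for 34 members (69.4%, against 54.3% of all gene models) and above 2-fold for 14 (28.6%, against 7.27%). It was more than 2-fold lower for 4 of 49 members, against 333 of 8353 gene models. The median log2 fold change was 0.41 for the members and 0.05 for all gene models, and the middle part of the members, between the quartiles, ran from -0.12 to 1.13. The count of 8 rested on single controls, since it was 5 without PT control 1 or without PT control 2 and 12 without PT control 6. The 8 were also not separate observations. Among them, MCINXTMP_003386, MCINXTMP_015383, MCINXTMP_009203, MCINXTMP_012850 and MCINXTMP_003916 had Spearman correlations of 0.86 to 0.97 with each other in flown PT butterflies of 1 h.

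MCINXTMP_012850 had the smallest p among the members. It stood at 18.0 to 159 CPM in flown PT butterflies (median 51.8) and at 7.34 to 42.9 CPM in PT controls (median 12.4). The groups overlapped, although 9 of 16 flown butterflies lay above the highest control and all 16 above the control median. The log2 fold change was 1.77 ± 0.43 (SE), with an edgeR adjusted p of 0.716 and an unadjusted p of 0.000113.

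MCINXTMP_009203 was next. Flown PT butterflies ran from 4.85 to 700 CPM (median 130) and PT controls from 2.57 to 80.2 CPM (median 22.3). Of 16 flown butterflies, 11 lay above the highest control, and the remaining 5, between 4.85 and 17.2 CPM, lay within the range of the controls. The log2 fold change was 2.30 ± 0.81 (SE), with an edgeR adjusted p of 0.933 and an unadjusted p of 0.00592. In the AL butterflies that made the choice, the lowest flown value was 118 CPM and the highest control value 28.5 CPM.

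The 2 members that led the choice were also split among flown PT butterflies. MCINXTMP_003386 ran from 0.638 to 149 CPM in flown butterflies (median 39.8) and from 0 to 29.8 CPM in controls (median 4.26), with 9 of 16 flown butterflies above the highest control. Its log2 fold change was 2.10 ± 0.90 (SE), with an unadjusted p of 0.0230. MCINXTMP_015383 ran from 15.5 to 690 CPM (median 150) against 21.3 to 83.5 CPM (median 49.7), with 10 flown butterflies above the highest control and 4 below the lowest. Its log2 fold change was 1.84 ± 0.75 (SE), with an unadjusted p of 0.0178. None of the 49 members had every flown PT butterfly above every PT control, and neither had any of the 8353 gene models (0.0%).

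In the other direction, MCINXTMP_001208 had medians of 0.464 CPM in flown butterflies and 0.621 CPM in controls, and a log2 fold change of -1.19 ± 0.73 (SE, unadjusted p = 0.107), which became 0.06 in the 650 nt libraries alone. MCINXTMP_014647 had the higher median in flown butterflies, 5.69 against 3.85 CPM, and yet a fitted log2 fold change of -1.35 ± 0.85 (SE, unadjusted p = 0.116). PT control 6 stood at 122 CPM, where the other controls ran from 0.621 to 6.40 CPM, and without it the fitted value was 1.39.

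Of the first 10 members by score, 5 were more than 2-fold higher in flown PT butterflies at 1 h, beside 6 of 20 tested at ranks 11 to 30 and 3 of 19 at ranks 31 to 50. Their median log2 fold changes were 1.1, 0.40 and 0.37. The difference between ranks was not tested.

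**Figure D2:**
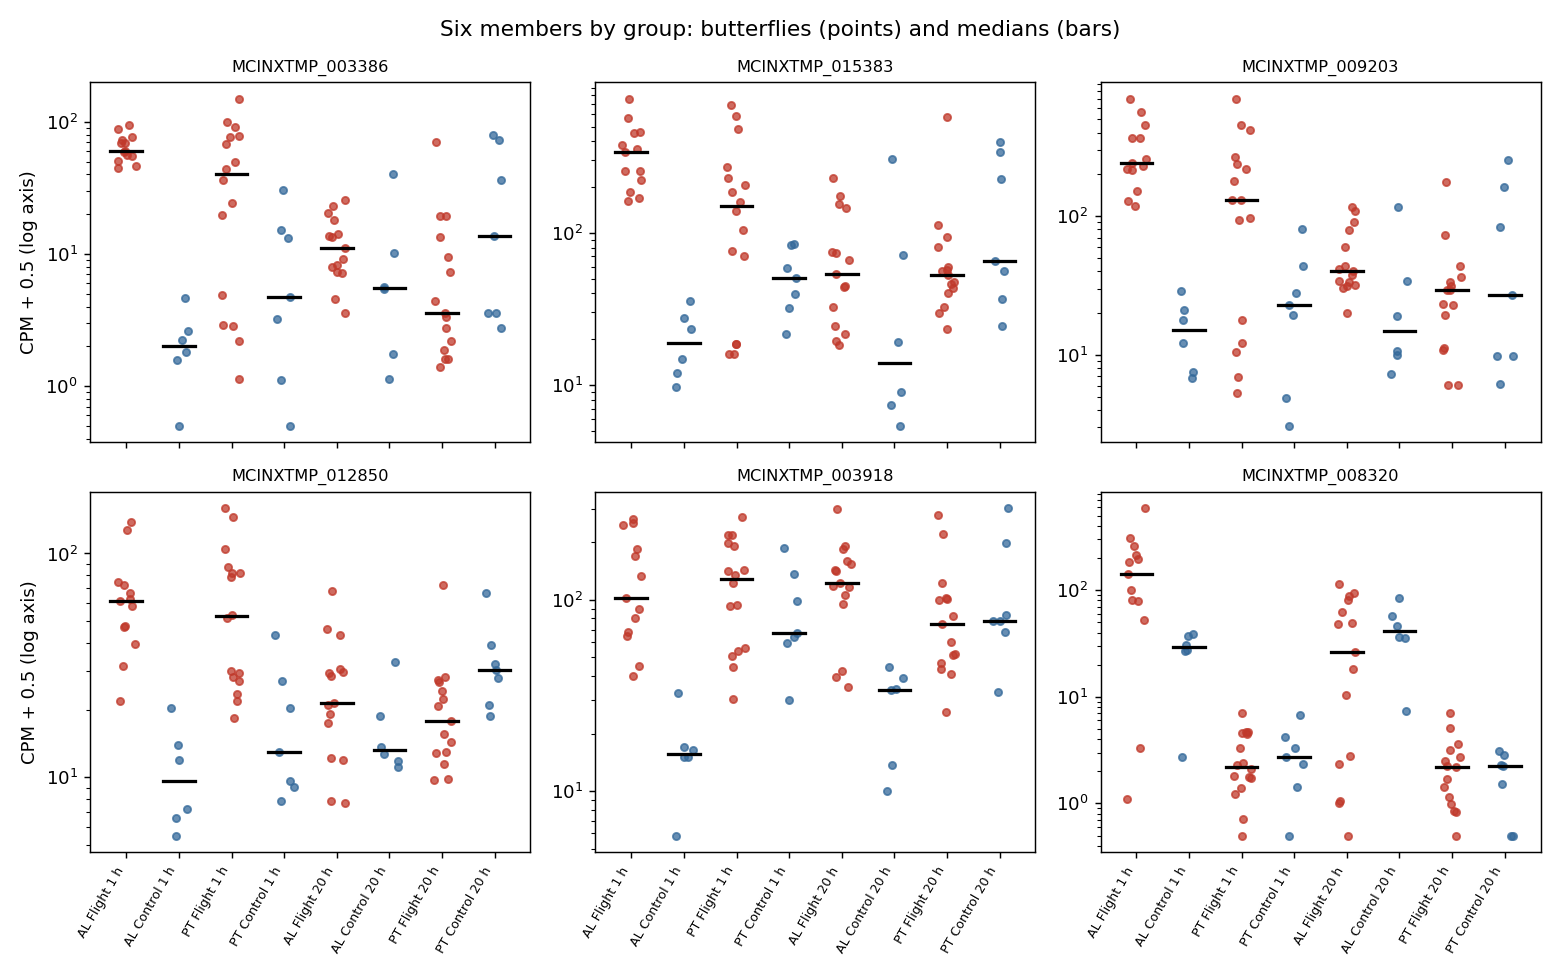
CPM + 0.5 (log axis) of 6 members in each butterfly (points, red flown and blue control) with the group median (bar), for the 8 groups. The flown PT butterflies at 1 h reach from the level of their controls to above the highest control for MCINXTMP_003386, MCINXTMP_015383 and MCINXTMP_009203, and MCINXTMP_008320 stayed at or below 6.57 CPM in every PT butterfly.

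The members were compared with each other across the flown PT butterflies of 1 h. Over the 16 butterflies, pairs of members had a median Spearman correlation of 0.13, against 0.03 for all pairs of gene models, and 16.1% of member pairs exceeded 0.5, against 4.00% of all pairs. Correlations are descriptions, since pairs share libraries and scaling. When one member was taken from the 450 nt library and the other from the 650 nt library of the same butterfly, which removes a shared library but not a shared RNA extract, the median was 0.11 and 13.2% exceeded 0.5.

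A set of 5 gene models, picked after their values were seen, carried the closest pattern. MCINXTMP_003386, MCINXTMP_015383, MCINXTMP_009203, MCINXTMP_005106 and MCINXTMP_012850 had correlations of 0.89 to 0.97 over their 10 pairs, and of 0.72 to 0.96 between libraries of different insert size. Ordered by MCINXTMP_009203, flown PT butterflies 4, 11, 7, 2 and 1 came lowest, at 4.85, 6.42, 9.89, 11.7 and 17.2 CPM, and the next, butterfly 14, stood at 92.9 CPM. These numbers only name butterflies. The same 5 butterflies had the 5 lowest values of MCINXTMP_003386, from 0.638 to 4.43 CPM, where the others ran from 19.1 to 149 CPM. They also had the 5 lowest values of MCINXTMP_012850, from 18.0 to 27.4 CPM, where the next stood at 28.7 CPM. For the other members of the set the order differed: butterfly 13 lay below butterfly 1 for MCINXTMP_015383 (70.4 and 75.4 CPM), and butterflies 14 and 12 lay below butterfly 1 for MCINXTMP_005106 (4.23, 5.79 and 6.03 CPM). Butterfly 10 was highest for all 5 gene models, at 149, 690, 700, 118 and 159 CPM in the order named above. Both sexes were among the low butterflies, with 4 females and 1 male.

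Of the 10 gene models most correlated with MCINXTMP_009203 in these 16 butterflies, 5 were members, and of the 100 most correlated, 14 were. Members made up 49 of the 8353 gene models tested. Of all members, MCINXTMP_009203 had the highest median correlation with the others in these same butterflies (0.45). Members near it therefore follow in part from its use as the reference, and the counts are a description. The nearest gene model outside the choice was MCINXTMP_005382, with a correlation of 0.94. The correlation of the 5 gene models with the total count of the butterfly ran from -0.36 to -0.15, and with the share of the 10 most abundant gene models from -0.50 to -0.38, so butterflies with high levels tended to have a smaller share in the most abundant gene models. The part of this share in the pattern was not tested.

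Among unflown PT butterflies at 20 h the same 5 gene models varied together, with a median correlation of 0.93 over 7 butterflies. In PT controls 3, 4 and 5 of 20 h, MCINXTMP_009203 stood at 254, 83.3 and 161 CPM, and in the other controls it ran from 5.61 to 26.3 CPM. MCINXTMP_003386 stood at 72.0, 35.5 and 78.6 CPM in these controls and at 2.26 to 13.2 CPM in the others. Both gene models were thus at high levels in these 3 butterflies that had not flown, and not only there. AL control 3 of 20 h had MCINXTMP_009203 at 116 CPM and MCINXTMP_003386 at 39.9 CPM. PT control 6 of 1 h had them at 80.2 and 29.8 CPM. The median correlation was 0.70 in PT controls of 1 h (7 butterflies), 0.53 in flown PT butterflies of 20 h (15), 0.33 in flown AL butterflies of 20 h (15) and 0.55 in flown AL butterflies of 1 h (13). In the AL controls it was 0.11 at 1 h and 0.51 at 20 h (6 butterflies each).

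**Figure D3:**
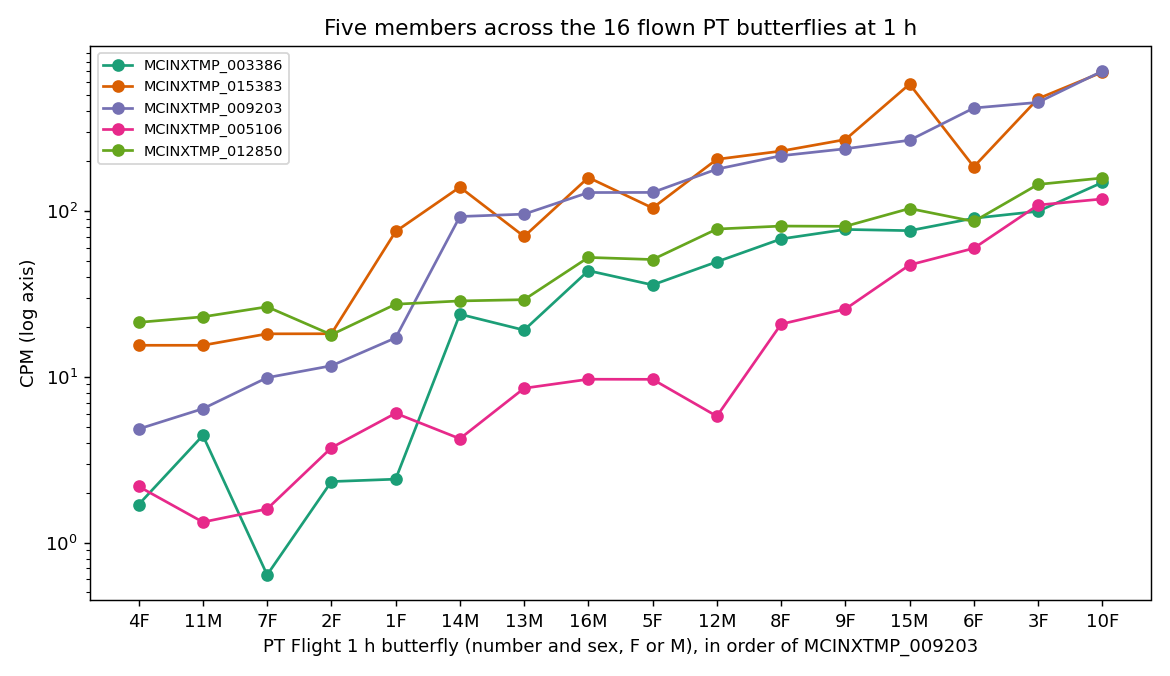
CPM (log axis) of 5 members in the 16 flown PT butterflies at 1 h, ordered by MCINXTMP_009203 (number and sex, F or M, on the horizontal axis). MCINXTMP_009203 steps from 17.2 CPM in butterfly 1 to 92.9 CPM in butterfly 14, and MCINXTMP_003386 steps from 2.41 to 23.9 CPM at the same place.

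Some members carry neighbouring numbers. MCINXTMP_003916 and MCINXTMP_003918 had a correlation of 0.81 in flown PT butterflies at 1 h and of 0.31 and 0.28 in flown AL and PT butterflies at 20 h. MCINXTMP_015826 and MCINXTMP_015827 had correlations of 0.53, 0.60 and -0.60 in these groups. For MCINXTMP_015975 and MCINXTMP_015978 the values were -0.12, 0.67 and 0.26, and for MCINXTMP_015377 and MCINXTMP_015383 they were 0.25, 0.36 and -0.04. The sources used here do not say whether such numbers mark adjacent or overlapping genes, or whether counting took account of strand.

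The comparison at 20 h asked what was left of the flight response on the next morning. In AL, 29 of 49 members had a fitted change above 0 (59.2%, against 52.7% of all gene models), with a median log2 fold change of 0.21 against 0.04. One member was called higher by edgeR (0.275% of all gene models were) and none lower. Higher and lower together, 41 gene models were called, and this count ran from 6 without AL control 3 to 49 without AL control 2 of 20 h. MCINXTMP_003918 stood at 34.5 to 298 CPM in flown AL butterflies (median 123) and at 9.48 to 44.0 CPM in controls (median 33.5). All 15 flown butterflies lay above the control median and 12 above the highest control. The log2 fold change was 1.84 ± 0.46 (SE; edgeR adjusted p = 0.0402), and leaving out any of the 6 controls ended the call, with values of 1.66 to 2.08 and edgeR adjusted p of 0.0652 to 0.139.

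MCINXTMP_015280 was close to the threshold. It stood at 1.83 to 22.3 CPM in flown AL butterflies (median 4.85) and at 0.314 to 2.30 CPM in controls (median 0.939), with 13 of 15 flown butterflies above the highest control. The log2 fold change was 2.61 ± 0.69 (SE; edgeR adjusted p = 0.0645). MCINXTMP_001208 and MCINXTMP_006265 lay in the other direction, with log2 fold changes of -1.56 ± 0.74 and -1.78 ± 0.86 (SE) and edgeR adjusted p of 0.420 and 0.446. For MCINXTMP_006265 flown butterflies ran from 0 to 121 CPM (median 1.98) and controls from 0.169 to 98.8 CPM (median 18.2), so the groups overlapped fully.

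In PT at 20 h, 22 of 49 members had a fitted change above 0 (44.9%, against 54.1%), with a median log2 fold change of -0.09 against 0.06, and no member was called by edgeR (0.251% of all gene models were, a count of 21 that ran from 0 without PT control 1 to 78 without PT control 6 of 20 h). DESeq2 called 1 member, and so did edgeR with total-count scaling, with a minimum mean of 5 CPM and in a fit on all 85 butterflies. One of the 22 was MCINXTMP_009829, which had no read in any PT butterfly of 20 h, so its sign carries no information. At an unadjusted p under 0.05 by edgeR, 0 members were higher and 2 lower, against 587 and 511 of 8353 gene models. MCINXTMP_008706 stood at 16.0 to 92.0 CPM in flown PT butterflies (median 31.8) and at 23.7 to 307 CPM in controls (median 72.2), with 3 of 15 flown butterflies below the lowest control and 13 at or below the control median. The log2 fold change was -1.34 ± 0.36 (SE; edgeR adjusted p = 0.0665), and without PT control 6 of 20 h it was called, at -1.51 (edgeR adjusted p = 0.0352). MCINXTMP_015826 followed, at -1.82 ± 0.80 (SE, unadjusted p = 0.0264). The largest positive values with the smallest p were 1.69 ± 0.99 for MCINXTMP_015164 and 1.42 ± 1.1 for MCINXTMP_008045, neither called, and both at medians under 1 CPM in PT.

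The difference between the PT flight effects at 20 h and at 1 h was tested directly. No member and no gene model was called (0.0%), and DESeq2 and limma voom called 1 member each. At an unadjusted p under 0.05 by edgeR, 10 members had a smaller effect at 20 h (20.4%, against 4.17% of all gene models). None had a larger one, against 342 of 8353 gene models. The 10 were not separate observations, since they include the set of 5 with correlations of 0.89 to 0.97 in flown PT butterflies of 1 h. Some PT controls of 20 h, which enter this difference, had high levels of MCINXTMP_009203 and MCINXTMP_003386, as given above. For MCINXTMP_012850 the effect was smaller at 20 h, at -2.34 ± 0.57 on the log2 scale (SE; edgeR adjusted p = 0.142), and for MCINXTMP_008706 it was -1.79 ± 0.54 (SE; edgeR adjusted p = 0.242). The 8 members higher at 1 h at an unadjusted p under 0.05 all had fitted values below 0 at 20 h in PT, and 4 of the 8 had values above 0 at 20 h in AL. The PT flown and control groups of 1 h enter both this difference and the effect at 1 h, so the values are not independent of each other.

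Flown PT butterflies of 20 h were also compared with flown PT butterflies of 1 h. Here 3 members were called lower (6.12%, against 0.407% of all gene models), and none higher, against 36 of 8353 gene models. MCINXTMP_009203 ran from 5.51 to 176 CPM at 20 h (median 28.8), where at 1 h the median had been 130 CPM, and the log2 difference was -2.30 ± 0.58 (SE; edgeR adjusted p = 0.0350). MCINXTMP_012850 ran from 9.22 to 71.8 CPM (median 17.3) at 20 h against a median of 51.8 CPM at 1 h, and its log2 difference was -1.52 ± 0.32 (SE; edgeR adjusted p = 0.00960). The third was MCINXTMP_008706, with a median of 31.8 CPM against 106 CPM and a log2 value of -1.20 ± 0.30 (SE; edgeR adjusted p = 0.0324). For all 3 the ranges of the groups overlapped. MCINXTMP_009203 and MCINXTMP_012850 had a Spearman correlation of 0.97 in flown PT butterflies of 1 h, so their calls are not separate observations. The calls were 1 by limma voom, 1 in the libraries of either insert size alone and 0 in females alone.

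Between unflown PT butterflies of 20 h and of 1 h no member and no gene model was called by edgeR (0.0%). DESeq2 and limma voom called 0 members. By edgeR 1 member was higher and 1 lower at an unadjusted p under 0.05, against 195 and 224 of 8353 gene models. MCINXTMP_011475 was higher at 20 h by 1.66 ± 0.78 on the log2 scale (SE, unadjusted p = 0.0367), with medians of 4.27 CPM at 20 h and 2.48 CPM at 1 h. MCINXTMP_012850 had medians of 29.6 and 12.4 CPM, and its controls thus stood above those of 1 h while its flown butterflies stood below, without a call for the controls. The member lower at 20 h was MCINXTMP_009829, with 6 reads in a single PT control of 1 h and none at 20 h. MCINXTMP_014608 followed, at -1.04 ± 0.66 (SE, unadjusted p = 0.119).

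**Figure D4:**
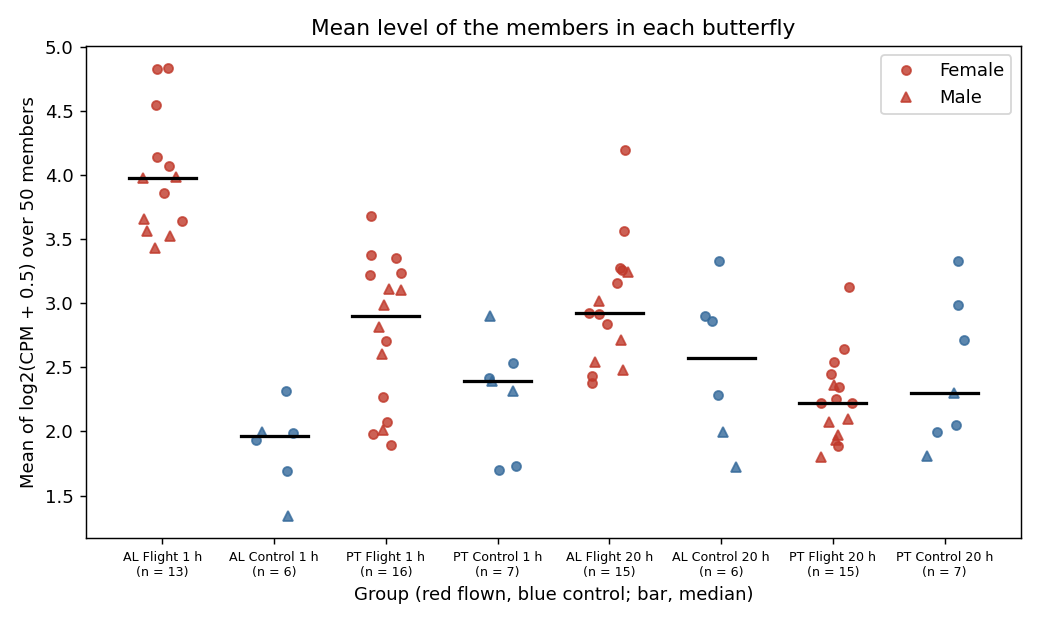
Mean of log2(CPM + 0.5) over the 50 members in each butterfly, by group (circles females, triangles males, bars medians). The first 2 groups made the choice and are shown for reference, and the flown PT butterflies at 1 h run from 1.90 to 3.68 around a median of 2.90, overlapping their controls at 1.70 to 2.90.

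Averaged over the members, the level on the log2(CPM + 0.5) scale had a median of 2.90 in flown PT butterflies at 1 h and 2.39 in their controls. It was 2.23 and 2.30 in flown and control PT butterflies at 20 h, and 2.92 and 2.57 in AL at 20 h. In the groups that made the choice it was 3.98 and 1.96. These averages are given as a description, and the ranges of flown and control butterflies overlapped in all 3 comparisons outside the choice.

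Unflown butterflies of AL and PT at 20 h differed in part of the members. AL controls of 20 h were compared with PT controls of 20 h, and 8 members were higher in AL (16.3%, against 6.68% of all gene models) and 5 higher in PT (10.2%, against 5.1%). Of these 13 calls in all, females alone gave 6. The rule set a minimum level in flown AL butterflies and none in PT, and favoured low AL controls at 1 h, so these counts are not free of the rule, although the butterflies compared took no part in it. Any batch that followed the island cannot be told apart from it.

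MCINXTMP_008320 stood at 6.82 to 83.6 CPM in AL controls of 20 h (median 40.7) and at 0 to 2.59 CPM in PT controls (median 1.76), with no overlap. The log2 difference was 5.17 ± 0.99 (SE; edgeR adjusted p = 0.000191). MCINXTMP_015164 stood at 0.846 to 29.6 CPM (median 8.06) against 0 to 0.758 CPM (median 0), also with no overlap, and the log2 difference was 5.73 ± 1.12 (SE; edgeR adjusted p = 0.000234), with only 5 reads in all PT controls together. Flight at 1 h left both low in PT, with medians of 1.70 and 0 CPM in flown butterflies. Across the 8 members higher in AL, the highest median in flown PT butterflies at 1 h was 2.49 CPM, and 2 of the 8 had a fitted PT flight effect above 0. One of the 8, MCINXTMP_009829, had no read in the 7 PT controls of 20 h and a median of 0.494 CPM in the AL controls, so no fold is given for it.

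The members higher in PT were led by MCINXTMP_015280 and MCINXTMP_003916. MCINXTMP_015280 stood at 1.02 to 20.8 CPM in PT controls of 20 h (median 7.75) and at 0.314 to 2.30 CPM in AL controls (median 0.939). The log2 difference, AL minus PT, was -3.19 ± 0.75 (SE; edgeR adjusted p = 0.00231). MCINXTMP_003916 stood at 32.1 to 554 CPM in PT controls (median 453) and at 4.72 to 99.8 CPM in AL controls (median 27.6), and the log2 difference was -3.10 ± 0.84 (SE; edgeR adjusted p = 0.00913). For both the ranges overlapped. All 5 members higher in PT had a fitted PT flight effect above 0 at 1 h, the lowest at 0.13 on the log2 scale. Such an effect was above 0 for 69.4% of the members tested and 54.3% of all gene models. Whether its sign goes with the difference between controls was not tested.

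Over all 50 members, 20 had medians under 5 CPM in each of the 4 PT groups, 8 had medians under 1 CPM in each, and 3 had medians of 0 in each. At 1 h, 28 members reached a median of 5 CPM in flown PT butterflies, which all 50 did in AL by the rule. At these levels a member rests on few reads, since 1 read was worth 0.200 to 0.460 CPM in these flown butterflies. The same counts were not made over all eligible gene models, so whether low PT levels are particular to the members was not tested.

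**Figure D5:**
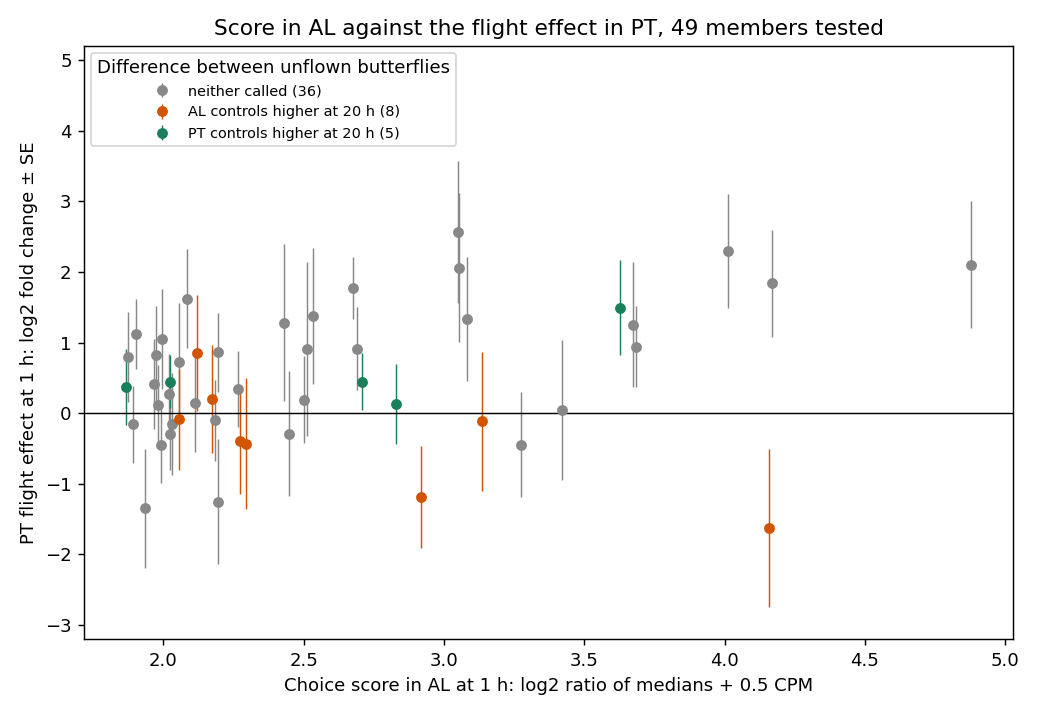
Fitted PT flight effect at 1 h (log2 fold change ± SE) against the AL choice score for the 49 members tested, coloured by the difference between unflown butterflies of the islands at 20 h. Of the 8 members higher in AL controls, 2 lie above 0, and all 5 members higher in PT controls do. This contrast was not tested. The score on the horizontal axis made the choice.

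Whether flight acted differently on the islands was tested at 20 h, where both populations are free of the choice. By edgeR 1 gene model was called (0.012%) and no member. At an unadjusted p under 0.05, 5 of 49 members were higher and 1 lower, against 462 and 428 of all 8353 gene models. DESeq2 called 2 members, and edgeR with total-count scaling 1. MCINXTMP_003918 had the smallest p. Its effect in AL minus that in PT was, on the log2 scale, 2.24 ± 0.59 (SE; edgeR adjusted p = 0.108), and without PT control 6 of 20 h it was called, at 2.41 (edgeR adjusted p = 0.0469). Its PT butterflies ran from 25.4 to 277 CPM when flown (median 74.6) and from 32.7 to 301 CPM when not (median 77.2). Between the controls of 20 h MCINXTMP_003918 was called lower in AL, at -1.935 ± 0.506 (SE; edgeR adjusted p = 0.00647). The AL controls of 20 h enter this value, the AL flight effect and the difference of effects, so these are not independent. MCINXTMP_004615 followed, at 2.57 ± 0.83 (SE; edgeR adjusted p = 0.215). In AL its medians were 29.6 CPM when flown and 13.6 CPM when not, and in PT 20.8 and 24.6 CPM. The smallest p in the other direction belonged to MCINXTMP_007262, at -1.61 ± 0.78 (SE; edgeR adjusted p = 0.446), and MCINXTMP_001208 followed, at -1.82 ± 1.06 (SE; edgeR adjusted p = 0.545). At 1 h the same test would use the values that chose the members and was not run.

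Males and females were compared over the 66 butterflies. Males were higher in 3 members (6.12%, against 6.25% of all gene models) and lower in none (0.0%, against 5.39%), so the share higher was near that of all gene models. MCINXTMP_014238 was higher in males by 1.47 ± 0.43 on the log2 scale (SE; edgeR adjusted p = 0.0141), and MCINXTMP_000013 by 1.03 ± 0.31 (SE; edgeR adjusted p = 0.0179). With total counts as the only scaling, 1 member was higher in males and 3 lower, so the direction over the members depends on the scaling. The differences towards females of smallest p were not called, at -0.85 ± 0.35 for MCINXTMP_009513 (SE; edgeR adjusted p = 0.111) and -1.09 ± 0.49 for MCINXTMP_012985 (SE; edgeR adjusted p = 0.151). No member was called for a difference of the PT flight effect at 1 h between the sexes (0.0% of 9141 gene models in a fit of the 45 PT butterflies, where 46 members were tested). The smallest p in that comparison belonged to MCINXTMP_014647, at -4.78 ± 1.77 (SE, unadjusted p = 0.0105), and to MCINXTMP_014696, at -4.91 ± 1.92 (SE, unadjusted p = 0.0140). For MCINXTMP_014647 the value takes in PT control 6, at 122 CPM, which is 1 of only 3 male PT controls of 1 h, the others standing at 0.632 and 3.85 CPM. For MCINXTMP_014696 the female PT controls of 1 h stood at 0 to 0.684 CPM, so the size of its value rests on controls at or near 0. In the other direction stood MCINXTMP_009513 at 2.02 ± 1.27 and MCINXTMP_009944 at 2.65 ± 1.86 (SE).

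Libraries of 650 nt and 450 nt inserts, made from each butterfly, were compared within butterflies. By limma on the paired differences, 1 member was higher with 650 nt inserts (2.04%, against 9.31% of all gene models) and 2 were lower (4.08%, against 8.05%). MCINXTMP_009203 was higher by 0.27 ± 0.10 on the log2 scale (SE; limma adjusted p = 0.0490), a call that was lost when the prior count was lowered from 2 to 0.5 (limma adjusted p = 0.0579). MCINXTMP_013119 was lower, at -0.57 ± 0.14 (SE; limma adjusted p = 0.00181), and so was MCINXTMP_015377, at -0.46 ± 0.13 (SE; limma adjusted p = 0.00924). These differences were small beside the spread between butterflies, which for MCINXTMP_009203 alone ran from 4.85 to 700 CPM in flown PT butterflies at 1 h.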

How the data were processed

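Thorax RNA of 85 butterflies was sequenced from polyA-anchored, strand-specific libraries 2 per butterfly (average inserts 450 nt and 650 nt), as the labels' protocols state. For each of 170 libraries the authors deposited raw counts, as whole numbers per gene model. The tools named are edgeR, TopHat2 2.0.5 and CASAVA 1.8, per the submitters' processing notes. Annotation, genome build, counting software and use of strand in counting were not given in the sources used here, so reads of overlapping or near-identical genes may be split or shared. A normalized table was not used.

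Counts of both libraries were summed per butterfly. The members and lists were chosen with earlier results of these data known. Tests used edgeR 4.0.16 in R 4.3.3 (quasi-likelihood F test, robust fit, TMM factors 0.66 to 1.94, filterByExpr, which kept 99.8% of counts) on the 66 butterflies outside the choice, with means of 6 population by treatment cells and sex. The sex difference in the flight effect used 8 sex by treatment cells of the 45 PT butterflies. Insert sizes were compared by limma 3.58.1 with a prior count of 2. Adjustment was by Benjamini-Hochberg over all gene models tested, and called means an adjusted p under 0.05. Each standard error is the size of the log2 fold change over the root of its F value. DESeq2 1.42.0, limma voom, other scalings, filters, subsets and rules of choice were alternatives. The procedure was tested on simulated data. Replicates are separate butterflies, numbered in order of accession, so no numbers pair them.

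Per comparison, the 2 members with the largest rise and the 2 with the largest fall among those called were named, and otherwise those of smallest p in that direction; the ends of the choice, the members that vary most with the others, and the single gene models stated to be picked after their values were seen were also named. In the reference table of names for assembly ilMelCinx1.1, 0 of the 16667 identifiers were found. No name, position or sequence is therefore given, and the lists of early regulators, heat shock, metabolic and immune genes and the cell type markers were not analysed here.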

Additional observations from a re-analysis of the deposited data

Results flagged for a closer look

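Among the members named above, 124 groups of 4 to 10 butterflies were searched for a single butterfly far from the rest. Such a butterfly was found in 8 (6.45%). For separate groups chance alone gives about 1 in 20. These groups share butterflies and some members vary together, so the shares are not directly comparable. In PT controls of 1 h, MCINXTMP_014647 stood at 122.3 CPM in butterfly 6 and at 0.621 to 6.40 CPM in the others. In the same group MCINXTMP_006265 was at 0 CPM in butterfly 1, with the others at 2.53 to 8.08 CPM. MCINXTMP_009829 was at 1.22 CPM in butterfly 7, with the others at 0. MCINXTMP_003916 was at 4.04 CPM in butterfly 2, with the others at 83.3 to 542 CPM. MCINXTMP_007262 was at 1.14 CPM in butterfly 3, with the others at 4.66 to 11.4 CPM. The 5 values of PT controls at 1 h came from 5 different butterflies. In AL controls of 1 h, which took part in the choice, MCINXTMP_008045 was at 4.11 CPM in butterfly 3, with the others at 0 to 0.435 CPM, and MCINXTMP_008320 was at 2.21 CPM in butterfly 2, with the others at 26.6 to 38.5 CPM. In AL controls of 20 h MCINXTMP_008320 was at 6.82 CPM in butterfly 3, with the others at 35.1 to 83.6 CPM.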

How the results depend on the processing

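Groups of butterflies could not be compared in pairs, because the labels give no replicate numbers that pair butterflies between groups. Members called for the AL flight effect at 20 h (1) were 4 with total-count scaling and by DESeq2, 2 with a minimum mean of 5 CPM and in a fit on all 85 butterflies, and 0 without a count filter, in AL alone, in females alone, with 650 nt libraries alone, and without any 1 of the 6 controls. For the PT effect at 20 h (0) there was 1 with total-count scaling, the minimum mean, DESeq2 or all 85 butterflies, and 0 to 1 over the controls left out (1 without PT control 6 of 20 h). With the minimum mean, 12 members were higher there, of fewer tested. The PT effect at 20 h minus that at 1 h (0) gave 1 by DESeq2 and 1 by limma voom. Flown PT butterflies of 20 h against 1 h (3) gave 1 by limma voom, 1 with 450 nt, 1 with 650 nt and 0 in females. The islands' controls (13) gave 6 in females. The difference of island effects (0) gave 1 with total-count scaling, 2 by DESeq2 and 0 to 1 over controls left out (1 without PT control 6). Sex (3) gave 1 with the minimum mean. Insert size (3) gave 2 with a prior count of 0.5. Members higher in PT at 1 h at an unadjusted p under 0.05 (8) were 5 to 12 over controls left out.

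MCINXTMP_001208 changed sign to 0.06 with 650 nt libraries (PT at 1 h) and to 0.01 in females (AL at 20 h). MCINXTMP_014647 in PT at 1 h became 0.29 by limma voom and 1.56 in females, and ran from -1.63 to 1.39 over controls left out. Its difference of effects became -0.38 and -1.73, and ran from -0.66 to 2.43. MCINXTMP_009829 in PT controls became 0.0 in females and ran from -3.35 to 0.0. Of the values of named members, 782 kept their direction and side of the threshold, 20 passed it, 24 lost it and 10 changed sign. The cause of these changes was not tested beyond what fewer butterflies or gene models give by construction.

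Other rules of choice shared 30 members with the 50 (minimum median of 1 CPM), 19 (20 CPM), 25 (the first 25) and 22 (AL females), and 37 to 40 with 1 AL control left out. The share of such members with a PT effect above 0 at 1 h ran from 64.0% to 78.0% over the controls left out. Members of few reads in PT limit what could be detected there.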
